A study of Mus musculus with 10 samples.

Results

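The genes for mitochondrial ribosomal proteins were described in CD8+ T cells cultured with or without N-acetylcysteine (NAC). Every gene whose symbol begins with Mrpl or Mrps followed by a digit was taken. This rule used names only, and no measured value. It found 78 of the 21898 genes in the deposited table, 49 named for the large and 29 named for the small ribosomal subunit. Enough reads for a test were present for 77 of them. The remaining one, Mrpl53, had 0 reads in all 10 libraries. Counting error alone allows it up to 0.169 to 0.226 CPM (read counts scaled to library size), the level of 3 reads, depending on the library. Mrpl53 also overlaps Gm42688 on the same strand by 900 bases. How shared reads were counted is not stated in the sources used here, so the level of Mrpl53 is uncertain.

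Mitochondria keep a ribosome of their own, which translates the few messenger RNAs of mitochondrial DNA into core subunits of the respiratory chain and of ATP synthase. Its RNA comes from mitochondrial DNA, while all of its proteins are encoded in the nucleus, made in the cytosol and imported. A part of these proteins descends from the bacterial ancestor of mitochondria and surrounds the catalytic and decoding sites, and the others were gained later and lie mostly at the outside. Activated T cells enlarge their mitochondria as they begin to divide, and mitochondrial translation is needed for much of their effector function. NAC is a thiol that supplies cysteine for glutathione synthesis.

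By their place in the known structure, 30 of the 78 genes encode large subunit proteins with a bacterial counterpart and 21 encode large subunit proteins specific to mitochondria. Another 16 encode small subunit proteins with a bacterial counterpart and 10 encode small subunit proteins specific to mitochondria. Mrps30 and Mrps18a carry small subunit names, but their products lie in the large subunit. Mrps36 is no ribosomal protein gene in this sense, since its product belongs to the alpha-ketoglutarate dehydrogenase complex. Counts by subunit are given by name unless stated otherwise.

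The 10 libraries were made from wild-type (WT) mouse spleen cells labelled CD8+ T cells, 5 after 5 days in medium with 10 mM NAC and 5 after 5 days in medium without it (control). Each group is numbered 1 to 5. The labels used here give no strain, age or sex. They also leave unsaid whether each library had its own animal or culture behind it, so a p-value speaks for the spread among the libraries alone, and that spread may be technical. Reads assigned to genes came to 15.82 ± 1.13 M per library with NAC and 16.21 ± 1.70 M in control (SD, n = 5 each). The genes described here took 0.381% to 0.514% of all reads with NAC and 0.411% to 0.431% in control.

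The libraries were not uniform. Principal component 1 (50.8% of the variance) parted the libraries numbered 1 and 2 from those numbered 3 to 5, in NAC and control alike. Component 2 (31.8%) parted NAC from control. Cd4, which marks helper T cells, reached 486 and 521.4 CPM in NAC 1 and 2 and 467.4 and 464.5 CPM in control 1 and 2. In libraries 3 to 5 it was at 2.23 to 2.77 CPM with NAC and 0.766 to 1.999 CPM in control. Cd8a ran from 238 to 271 CPM in NAC 1 and 2 and from 202 to 213 CPM in control 1 and 2, and from 650 to 667 CPM in NAC 3 to 5 and 488 to 522 CPM in control 3 to 5. The high level of Cd4 goes against the label of libraries 1 and 2 in both groups, so results are given for the 2 sets of libraries apart.

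Of the markers of other cells, 8 B cell markers summed to 12.3 to 12.5 CPM in NAC 1 and 2 against 2.94 to 3.58 CPM in control 1 and 2. They summed to 12.4 to 13.8 CPM in NAC 3 to 5 against 6.36 to 9.92 CPM in control 3 to 5. Most of this was Cd79b, at 9.08 to 11.8 CPM with NAC and 1.53 to 7.78 CPM in control. Pax5, the defining transcription factor of B cells, was at 0 in NAC 1 and 2 and in all 5 controls and at most at 0.229 CPM in NAC 3 to 5. The 12 myeloid and dendritic markers summed to 16.5 to 26.4 CPM with NAC and 15.6 to 32.2 CPM in control, mostly Cd68 and Zbtb46. The 6 NK cell markers summed to 39.4 to 48.8 CPM with NAC and 30.7 to 55.8 CPM in control, almost all Eomes, which T cells also express. The 6 erythroid and platelet markers summed to 3.85 to 4.92 CPM with NAC and 1.3 to 6 CPM in control. The part of other cells in the results below was not tested. In bulk RNA, fewer cells of a type and less RNA per cell cannot be told apart.

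The first comparison set all 5 NAC libraries against all 5 controls. Over all libraries together, NAC moved few of these genes by more than the spread between libraries. A single one, Mrpl20, was called lower (adjusted p below 0.05 in edgeR's quasi-likelihood test, Benjamini-Hochberg over 11403 genes), and 0 were called higher. Among all genes tested, 4.88% were called lower and 6.69% higher, so the share called among these genes, 1 of 77, was below the background. The median log2 change was -0.04 over the 77 genes, with 46 of them negative, and 0.01 over all genes tested. All 48 tested large subunit genes had a median of -0.05 and the 29 small subunit genes -0.03. With upper quartile scaling the median of these genes turned to 0.03, while that of all genes became 0.08.

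Mrpl20 encodes a large subunit protein whose bacterial counterpart acts early in assembly of that subunit. It had 77.5, 49.0, 76.9, 73.2 and 75.9 CPM in NAC 1 to 5, against 113.2, 106.7, 92.4, 99.1 and 103.3 CPM in control 1 to 5. Every NAC library lay below every control library, and NAC 2 was the lowest of all. The log2 change was -0.55 ± 0.13 (SE; adjusted p = 0.0225), a 1.46-fold fall. The call was lost without control 1 (adjusted p = 0.0566) or without control 2 (adjusted p = 0.0529), with changes of -0.51 and -0.53.

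The promoter of Mrpl20 is shown because it is the single gene called, and those of Mrpl33 and Mrps18a because they are the named genes with 2 different motifs inside the stretch shown. Each stretch runs from 120 bases before the annotated start to 30 bases from it on, read 5′ to 3′ on the gene's strand (RefSeq, GRCm38.p6). Capitals mark matches, on either strand, to the MYC E-box CACGTG, the ETS (GABPA) motif CCGGAAG, the NRF1 motif GCGCATG or the YY1 motif AAGATGG, which do not overlap one another here. These factors are textbook regulators of nuclear genes for mitochondria.
Mrpl20, chr4:155802758-155802907, plus strand: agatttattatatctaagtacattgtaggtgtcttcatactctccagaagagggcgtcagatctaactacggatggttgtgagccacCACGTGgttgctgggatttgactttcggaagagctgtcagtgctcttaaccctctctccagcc
Mrpl33, chr5:31613831-31613980, plus strand: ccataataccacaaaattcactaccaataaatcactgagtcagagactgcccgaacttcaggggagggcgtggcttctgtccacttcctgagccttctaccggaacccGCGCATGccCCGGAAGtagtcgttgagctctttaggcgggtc
Mrps18a, chr17:46110884-46111033, plus strand: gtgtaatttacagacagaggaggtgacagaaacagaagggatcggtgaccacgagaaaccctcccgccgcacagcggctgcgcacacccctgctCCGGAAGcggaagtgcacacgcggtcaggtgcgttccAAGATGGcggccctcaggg

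A promoter window of 250 bases before to 50 after the start was found for 69 of the 78 genes. The ETS motif was in 26 of the 69 (37.7%), against 21.6% of the 9188 tested genes with a window and 9.93% of all 27025 genes with one. The YY1 motif was in 13 (18.8%), against 8.61% of tested genes and 7.28% of all. The NRF1 motif was in 8 (11.6%), against 8.27% and 4.41%, and the E-box in 5 (7.25%), against 12% and 8.09%. At least 2 of the 4 motifs were present in 12 genes (17.4%), against 8.25% of tested genes. The motif counts are descriptions without a test, and a match is not a binding site. The windows, that of Mrpl20 included, were not screened for sequence repeated across the genome, and a match may lie in such a repeat. Of the 8 genes that were called lower in libraries 3 to 5 (below), 7 had a window, with the ETS motif in 1, the E-box in 1, the YY1 motif in 1 and the NRF1 motif in 0.

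The other large falls over all libraries did not pass the test. Mrps18b, a paralogue of Mrps18a and Mrps18c that is specific to mitochondria, had 32.3, 22.5, 35.3, 32.9 and 30.7 CPM with NAC and 45.4, 42.1, 37.5, 38.3 and 40.9 CPM in control. All NAC values lay below all controls, with a log2 change of -0.41 ± 0.12 (SE; adjusted p = 0.0522, and 0.0486 when blocked on the library number). Its paralogues gave overlapping values. Mrps18c, the counterpart of the bacterial protein of that name, had 8.94, 5.16, 8.52, 8.03 and 6.499 CPM with NAC and 6.96, 4.49, 7.89, 7.15 and 8.57 CPM in control. Mrps18a had 58.1, 39.9, 44.6, 44.4 and 45.4 CPM with NAC and 45.1, 46.8, 49.3, 46.4 and 49.4 CPM in control. In both paralogues NAC 1 was the highest and NAC 2 the lowest NAC library.

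Mrpl49, a large subunit gene specific to mitochondria, had 47.2, 37.6, 42.9, 38.1 and 42.6 CPM with NAC and 59.8, 54.8, 48.9, 49.1 and 48.4 CPM in control. Its groups did not overlap, with a log2 change of -0.33 ± 0.10 (SE; adjusted p = 0.0518, and 0.0349 with the block). Mrpl11, whose product lies at the base of the stalk where elongation factors bind, had 69.8, 48.7, 46.8, 45.4 and 47.5 CPM with NAC and 68.9, 62.4, 61.2, 63.7 and 65.7 CPM in control. NAC 1 alone was not below the controls, and lay above all of them. The log2 change of Mrpl11 was -0.32 ± 0.12 (SE; adjusted p = 0.105, and 0.0433 with the block), and -0.45 without NAC 1 (adjusted p = 0.0051). Mrps6, whose product binds the small subunit RNA in bacteria, changed by -0.33 ± 0.22 (SE) with overlapping groups; its gene shares sequence on the same strand with Slc5a3, which had 59.1 to 89.2 CPM with NAC and 42.6 to 64.4 CPM in control, so its counts are uncertain.

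The largest rises over all libraries were in Mrpl14, Mrpl23, Mrps16, Mrpl30 and Mrpl48, and none of the 5 passed the test. Mrpl30, a large subunit gene with a bacterial counterpart, had 109.7, 83.6, 78.6, 78.7 and 84.4 CPM with NAC and 72.0, 67.5, 67.3, 74.2 and 77.5 CPM in control. Every NAC library was higher than every control, with a log2 change of 0.28 ± 0.10 (SE; adjusted p = 0.098). Across all 77 genes, the groups did not overlap in 2 with NAC higher (Mrpl30 and Mrps9) and in 5 with NAC lower (Mrpl20, Mrpl37, Mrpl49, Mrpl50 and Mrps18b). Over all genes tested those shares were 8.62% and 7.75%.

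How many genes passed depended on how the spread between the library sets entered the fit. Blocking on the library number gave 5 genes lower (Mrpl11, Mrpl20, Mrpl49, Mrps7 and Mrps18b) and 0 higher, against 8.22% lower and 11.5% higher of all genes. With a term for the library set, 11 were lower and 1 (Mrpl30) higher, against 16.4% and 20.1%. Without NAC 1, 9 were lower and 0 higher, against 5.92% and 6.32%. Without control 1 or control 2, 0 were called in either direction, against 2.02% and 1.85% of all genes lower and 3.7% and 3.63% higher.

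**Figure D1:**
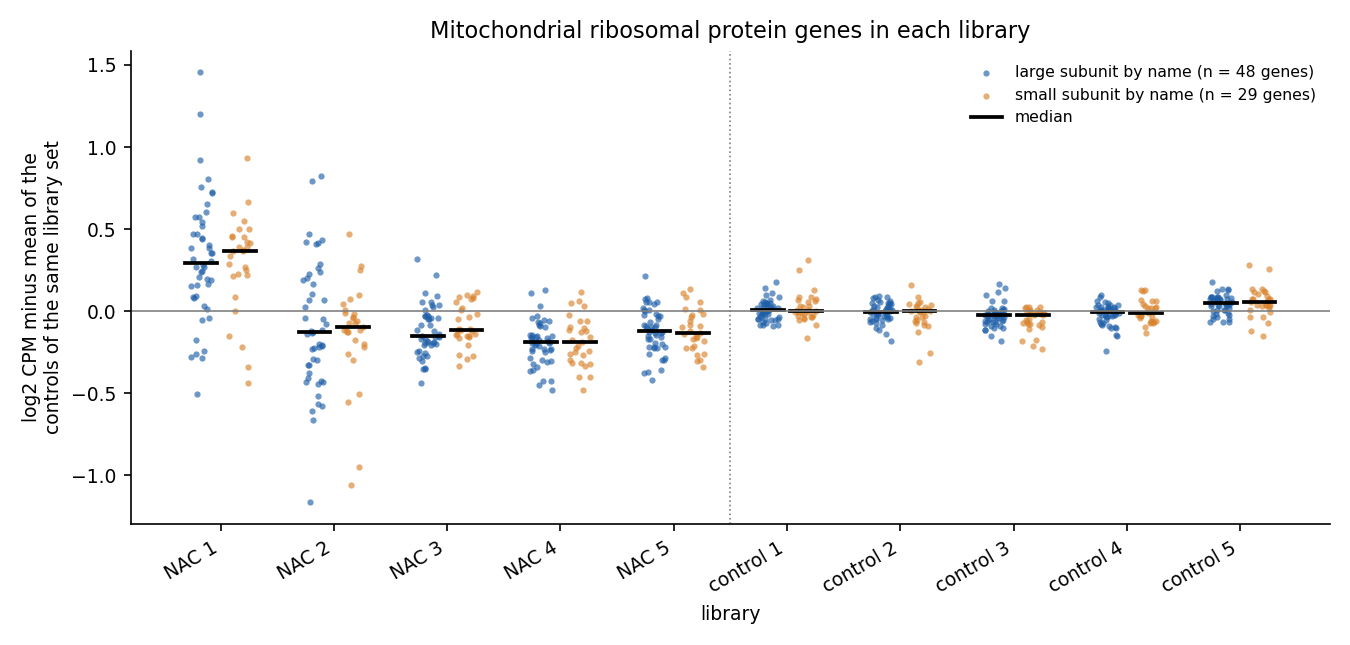
Log2 CPM of each of the 77 tested genes in each library (points; large subunit blue, small subunit orange) minus the mean of the controls with the same set of library numbers (1 and 2, or 3 to 5), with the median of each subunit as a bar. NAC 1 lies above its controls, with a median of 0.34 over the 77 genes, and NAC 2, 3, 4 and 5 lie below theirs, at -0.12, -0.12, -0.19 and -0.12.

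Libraries 3 to 5 of each group, those low in Cd4, showed a small fall spread over most of these genes. In a fit with a mean for each group and set, 8 genes were called lower and 0 higher. Among all genes tested 14% were called lower and 15% higher there, so the count lower was below the background. The 77 genes nevertheless leaned one way: the log2 change was negative in 67 (87.0%, against 49.4% of all genes), with a median of -0.16 against 0.00. The NAC values lay wholly below the controls in 37 genes and wholly above in 3 (Mrpl30, Mrps9 and Mrps10), against 27.5% and 27.1% of all genes tested. Under library size alone and under upper quartile scaling 57 genes were negative, with a median of -0.12, while all genes had a median of 0.05.

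The shares differed more when these 6 libraries were fitted alone, where the spread was not shared with libraries 1 and 2. Then 41 of the 77 genes (53.2%) were lower and 1 higher, against 25% lower and 23.7% higher of all genes. By subunit these were 27 of 48 large and 14 of 29 small subunit genes. The joint fit also gave 41 lower and 1 higher without NAC 1, against 24.1% and 22.7% of all genes, and 41 lower without NAC 2. Leaving out a library of this set lowered the count of 8: 3 were lower without NAC 3, 1 without NAC 4, 4 without NAC 5, 3 without control 3, 4 without control 4 and 1 without control 5. In the same settings 8.54% to 9.09% of all genes were called lower. Upper quartile scaling left 4, against 9.99% of all genes.

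The 8 genes called lower in libraries 3 to 5 were Mrpl1, Mrpl11, Mrpl20, Mrpl27, Mrpl40, Mrpl54, Mrps7 and Mrps25; those beyond the 4 largest falls are named because they were called. The largest fall was that of Mrpl11, with 46.8, 45.4 and 47.5 CPM in NAC 3 to 5 against 61.2, 63.7 and 65.7 CPM in control 3 to 5. The groups were far apart relative to their spread, at a log2 change of -0.45 ± 0.11 (SE; adjusted p = 0.00687), and this call held whichever library was left out. Mrpl20 fell there by 0.38 ± 0.12 on the log2 scale (SE; adjusted p = 0.0281). That call was lost when any of the 6 libraries was left out (adjusted p of 0.0512 to 0.101) and with upper quartile scaling (0.0537).

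Mrps25, a small subunit gene specific to mitochondria, had 21.4, 19.4 and 21.9 CPM in NAC 3 to 5 and 25.5, 27.4 and 28.2 CPM in control 3 to 5 (log2 change -0.37 ± 0.10 SE; adjusted p = 0.013). The call was lost without NAC 4 (adjusted p = 0.0621) or control 5 (adjusted p = 0.0571). Mrpl27, whose bacterial counterpart reaches towards the peptidyl transferase centre, had 23.3, 23.9 and 22.8 CPM in NAC 3 to 5 and 28.0, 28.7 and 32.7 CPM in control 3 to 5 (log2 change -0.35 ± 0.10 SE; adjusted p = 0.0195). Leaving out any of NAC 3, NAC 5 or control 5 ended that call, and without NAC 4 it stood at an adjusted p of 0.05. In both genes the groups stayed apart.

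The other 4 changed by -0.34 (Mrpl54), -0.28 (Mrpl40), -0.28 (Mrps7) and -0.26 (Mrpl1) on the log2 scale. Mrps7 encodes a protein of the small subunit head that binds its RNA early in assembly in bacteria, and Mrpl1 encodes the protein of the stalk through which spent transfer RNA leaves. Mrpl54 lost its call without NAC 4, control 3 or control 5, and Mrpl40 without any of NAC 3 to 5 or control 3 to 5. Mrpl1 and Mrps7 were near the threshold, at adjusted p of 0.04 and 0.0377. Mrpl1 kept its call only without NAC 1 or NAC 2, and Mrps7 only without NAC 1, NAC 2 or NAC 5, among the settings that leave out 1 library.

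No gene was called higher in libraries 3 to 5 in the joint fit. The 4 largest rises there were 0.17 ± 0.10 for Mrpl33, 0.14 ± 0.09 for Mrpl30, 0.09 ± 0.08 for Mrps10 and 0.08 ± 0.12 for Mrps35 (log2, SE). Mrpl33 had 16.98, 14.9 and 14.1 CPM in NAC 3 to 5 and 12.6, 13.9 and 14.3 CPM in control 3 to 5, with overlapping groups. For Mrpl30 the groups did not overlap, and it was the 1 gene higher in the fit to these libraries alone (adjusted p = 0.0231). Mrps10, a protein of the small subunit head, had 81.1, 78.9 and 83.7 CPM in NAC 3 to 5 against 75.8, 75.9 and 76.6 CPM in control 3 to 5, without overlap.

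**Figure D2:**
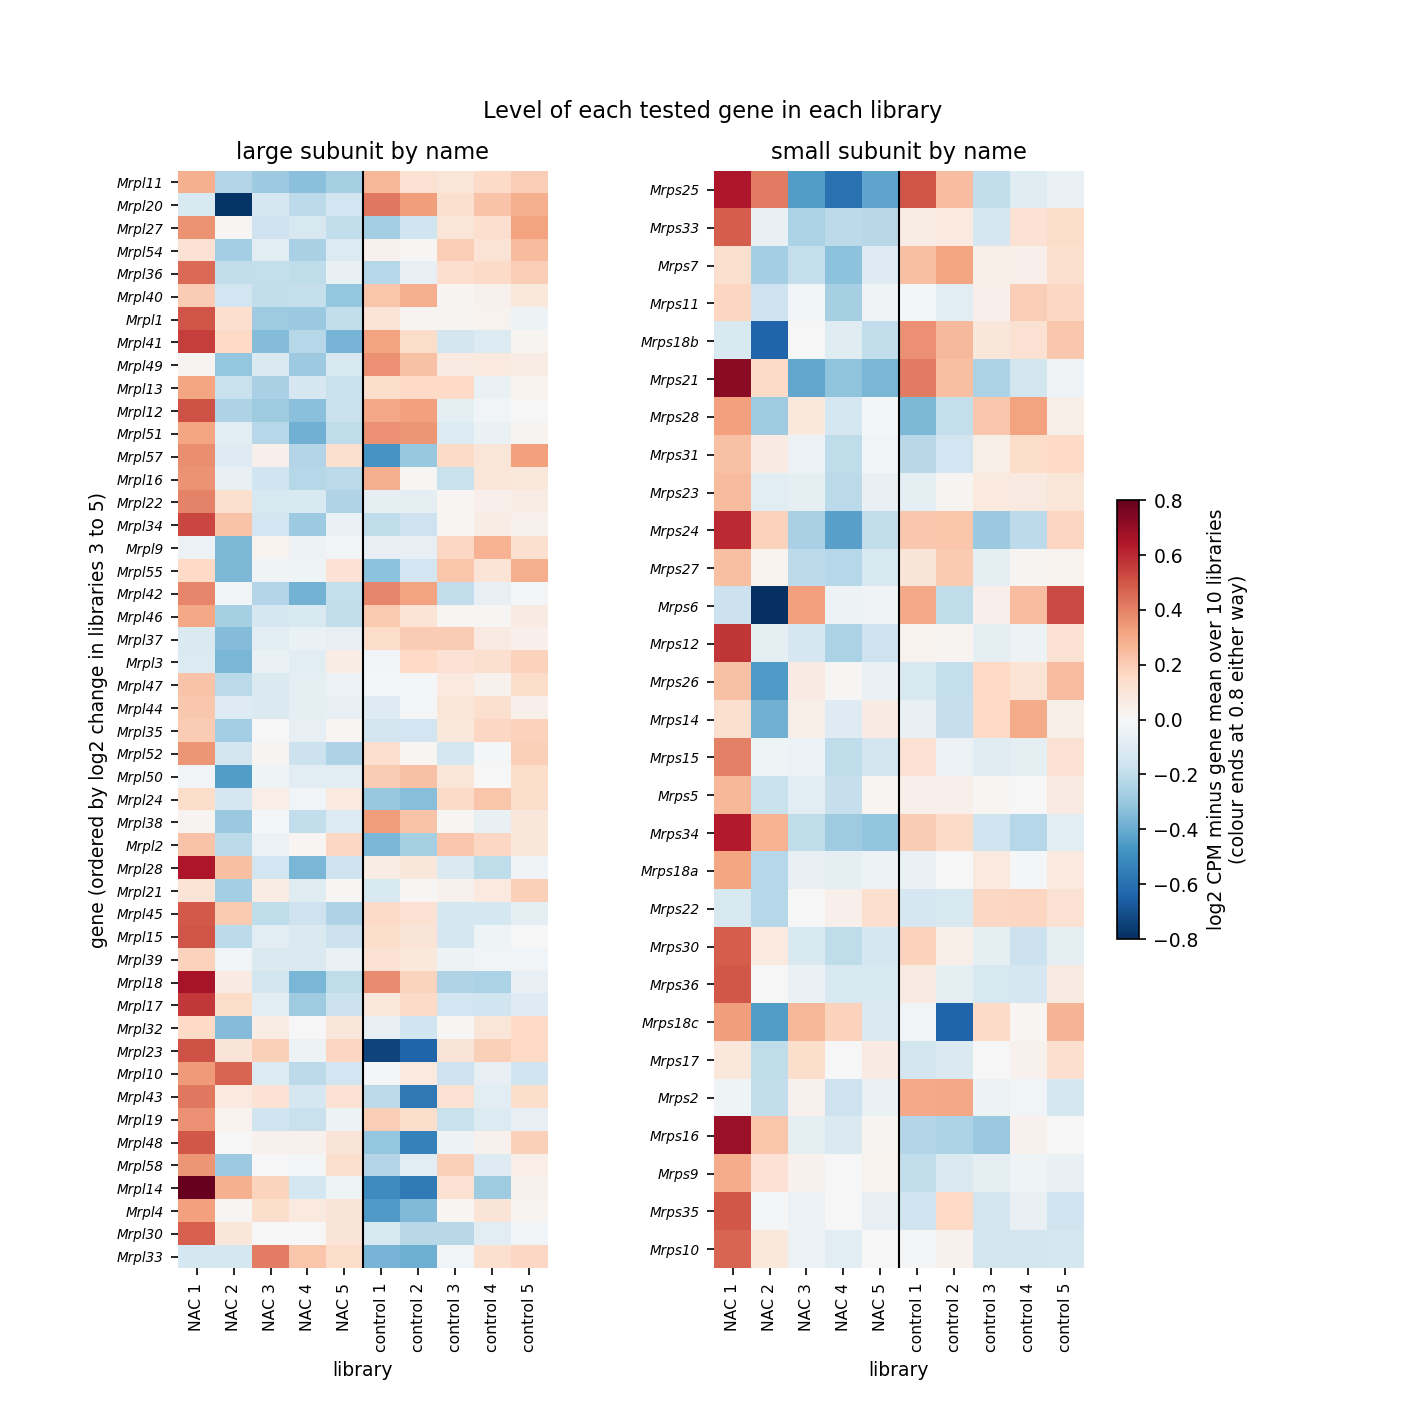
Log2 CPM of each tested gene minus its mean over the 10 libraries (red higher, blue lower), with NAC libraries left of the line and controls right of it, in each subunit ordered by the log2 change in libraries 3 to 5. NAC 1 is red in most rows, NAC 3 to 5 are mostly pale blue, and Mrpl14 and Mrpl23 are bluest in control 1 and 2.

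Libraries 1 and 2 of each group gave larger changes in both directions. There 21 genes were called higher and 10 lower, against 32.2% higher and 28.3% lower (60.5% in all) of all genes tested, so these genes (27.3% and 13.0%) were called less often than the background in each direction; the difference in share was not tested. Large subunit genes made up 16 of the higher and 6 of the lower calls. The median log2 change was 0.13, against 0.04 over all genes. Upper quartile scaling gave 27 higher and 7 lower, against 38.4% and 22.4% of all genes, and moved the median of all genes by over 0.1 to 0.15; these genes then had a median of 0.24. The groups did not overlap in 22 genes with NAC higher and 11 with NAC lower, against 39.3% and 34.8% of all genes.

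Mrpl14, whose product lies at the face where the subunits join, had 21.1 and 13.6 CPM in NAC 1 and 2 against 7.80 and 7.46 CPM in control 1 and 2. In NAC 3 to 5 it had 12.6, 10.1 and 10.8 CPM, against 12.1, 9.09 and 11.4 CPM in control 3 to 5. The rise of 1.18 ± 0.21 (log2, SE; adjusted p = 0.000268, 2.27-fold) in libraries 1 and 2 thus met a change of 0.05 ± 0.17 in libraries 3 to 5. Mrpl14 overlaps Tmem63b on the opposite strand, and the strand setting of the counting is not given in the sources used here. Tmem63b had 25.5 and 31.7 CPM in NAC 1 and 2 against 22.3 and 21.4 CPM in control 1 and 2, a rise of 0.39 (adjusted p = 0.0189). In libraries 3 to 5 it changed by -0.39 (adjusted p = 0.0173), and the difference between the sets was -0.78 (adjusted p = 0.00282).

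Mrpl23, whose product sits at the exit of the tunnel for the new peptide, had 97.7 and 73.7 CPM in NAC 1 and 2 against 41.0 and 44.0 CPM in control 1 and 2. It had 78.3, 66.8 and 77.2 CPM in NAC 3 to 5 against 73.8, 78.3 and 76.7 CPM in control 3 to 5. Control 1 and 2 alone were low, and NAC 2 was near the level of libraries 3 to 5. Its log2 change in libraries 1 and 2 was 1.01 ± 0.12 (SE; adjusted p = 1.14e-05), and in libraries 3 to 5 it was -0.04 ± 0.10.

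Mrps16, a small subunit gene with a bacterial counterpart, had 104.5 and 75.5 CPM in NAC 1 and 2 against 54.8 and 54.3 CPM in control 1 and 2, a log2 change of 0.72 ± 0.14 (SE; adjusted p = 0.000519). Mrpl48, specific to mitochondria, had 77.0 and 54.5 CPM in NAC 1 and 2 against 44.0 and 37.5 CPM in control 1 and 2, a change of 0.69 ± 0.14 (SE; adjusted p = 0.000825). In each of these 4 genes both NAC libraries were above both controls, and NAC 1 was above NAC 2. Their calls held without either NAC library or either control.

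The largest falls in libraries 1 and 2 were in Mrpl20, Mrps18b, Mrps6 and Mrpl50. Mrpl20 changed by -0.80 ± 0.15 and Mrps18b by -0.67 ± 0.14 (log2, SE; adjusted p = 0.000415 and 0.000853). Mrpl50, a large subunit gene specific to mitochondria, had 47.2 and 35.2 CPM in NAC 1 and 2 against 55.2 and 56.5 CPM in control 1 and 2, a change of -0.44 ± 0.11 (SE; adjusted p = 0.00472). In these 3 genes NAC 2 was lower than NAC 1 and both were below the controls. Mrps6 had 20.0 and 11.1 CPM in NAC 1 and 2 against 27.8 and 19.5 CPM in control 1 and 2, a change of -0.61 ± 0.25 (SE) with overlapping groups at an adjusted p of 0.0483. That call was lost without control 1 (adjusted p = 0.381), without NAC 2 (adjusted p = 0.506) and without any of NAC 3 to 5 or control 4.

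The pair of NAC libraries in this set disagreed. Against the mean of control 1 and 2, 65 of the 77 genes were higher in NAC 1, with a median log2 difference of 0.34, while 25 were higher in NAC 2, with a median of -0.12. For all genes tested the medians were 0.05 in NAC 1 and 0.03 in NAC 2. NAC 1 exceeded NAC 2 in 75 of the 77 genes (97.4%), with a median log2 ratio of 0.41, against 47.5% and -0.02 for all genes. Control 1 over control 2 gave a median of 0.01, with 40 of 77 above 0.

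The counts in libraries 1 and 2 therefore rested on which NAC library was kept. Without NAC 1, 11 genes were higher and 26 lower with a median of -0.11, against 33% and 30.1% of all genes. Without NAC 2, 53 were higher and 8 lower with a median of 0.34, against 35% and 31.5%. In each case the remaining NAC library is assumed to vary like the other groups. Without control 1, 12 were higher, against 26.6% of all genes. Fitted alone, libraries 1 and 2 gave 8 genes higher and 6 lower, against 23.7% and 20.1% of all genes.

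Gene length moved with the difference between NAC 1 and NAC 2 over all genes. The median log2 ratio of NAC 1 over NAC 2 was 0.42 for tested genes under 1000 bases in the authors' table and fell with each longer class to -0.24 for genes of 6000 bases and over. The genes described here were shorter than most, with a median length of 2533 bases against 4501 for all tested genes. Their ratio did not follow length: it was 0.39 in the 8 genes under 1000 bases and 0.41 in the 12 genes of 6000 bases and over. The part of library quality in this difference was not tested.

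**Figure D3:**
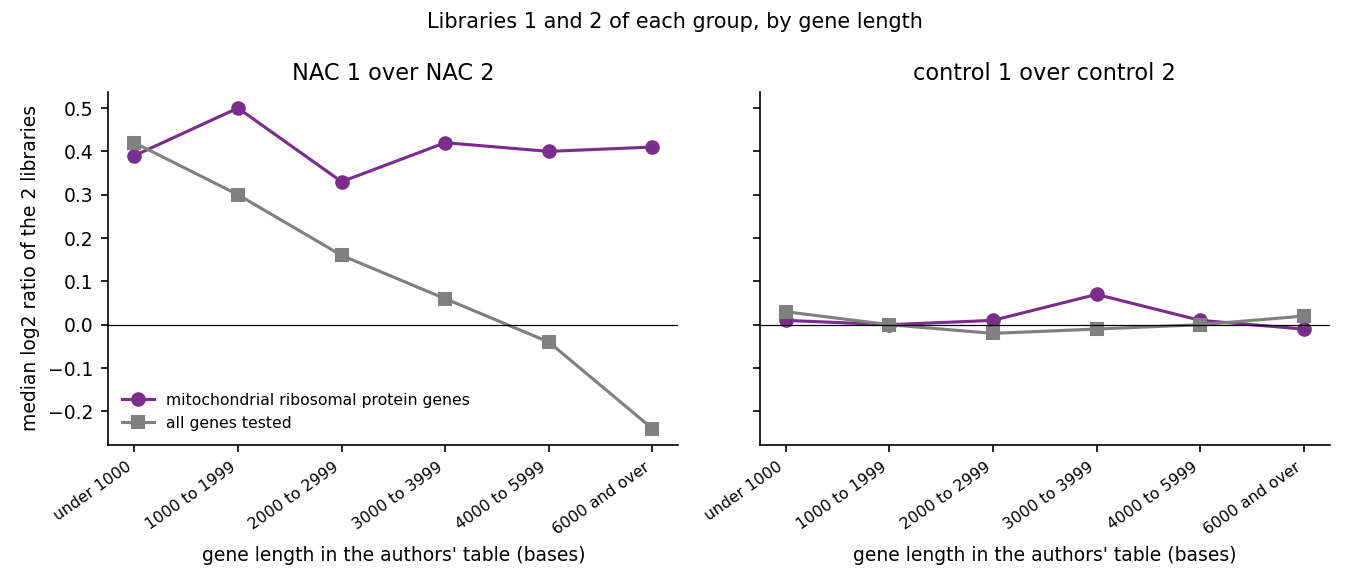
Median log2 ratio of NAC 1 over NAC 2 (left) and of control 1 over control 2 (right) by gene length in the authors' table, for the 77 genes (purple) and all genes tested (grey). In the NAC pair all genes decline from 0.42 to -0.24 with length while the 77 genes stay between 0.33 and 0.50; in the control pair every median is between -0.02 and 0.07.

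The sets were compared directly by testing the NAC effect in libraries 3 to 5 minus that in libraries 1 and 2. The difference passed for 22 of the 77 genes, in 21 of them towards a lower effect in libraries 3 to 5, against 21.9% of all genes in that direction, 20% in the other and 41.9% in both. Of the 21, 16 were large and 5 were small subunit genes. The smallest p was that of Mrpl23, at -1.05 ± 0.15 (log2, SE; adjusted p = 0.000204). The largest difference was that of Mrpl14, at -1.14 ± 0.27 (adjusted p = 0.00456). Without NAC 2, 60 genes differed in this direction, against 29.7% of all genes. Without NAC 1, 17 did and 11 differed in the other, against 25.1% and 23%.

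A pair of genes was called in opposite directions in the 2 sets. Of all genes tested, 60.5% were called in libraries 1 and 2 and 29% in libraries 3 to 5. The share with opposite calls was not counted, so the pair has no background. Mrpl27 had 33.5 and 26.3 CPM in NAC 1 and 2 against 21.6 and 23.4 CPM in control 1 and 2, a rise of 0.41 ± 0.12 (log2, SE), beside its fall in libraries 3 to 5. Mrpl1 had 75.3 and 58.3 CPM in NAC 1 and 2 against 57.2 and 53.9 CPM in control 1 and 2, and 43.6, 43.3 and 46.3 CPM in NAC 3 to 5 against 54.0, 54.1 and 51.5 CPM in control 3 to 5. The differences were -0.77 ± 0.16 (adjusted p = 0.00219) and -0.53 ± 0.14 (adjusted p = 0.00816). Without NAC 1 the rise in libraries 1 and 2 was 0.24 in Mrpl27 (adjusted p = 0.0941) and 0.08 in Mrpl1 (adjusted p = 0.458). It was also not called without control 1 in either gene, nor in Mrpl1 when any other library but NAC 2 was left out.

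The 1 gene that differed the other way was Mrps2, a small subunit protein with a bacterial counterpart, named because it was alone. It had 47.3 and 42.2 CPM in NAC 1 and 2 against 59.8 and 60.0 CPM in control 1 and 2, and 49.5, 43.2 and 46.8 CPM in NAC 3 to 5 against 47.2, 47.7 and 44.1 CPM in control 3 to 5. The fall was seen in libraries 1 and 2, where control 1 and 2 stood above the other 8 libraries, and the difference was 0.43 ± 0.12 (SE; adjusted p = 0.0109). Mrpl20 and Mrps7 were called lower in both sets, and 0 genes were called higher in both. The share of all genes tested with the same call in both sets was not counted, so these numbers have no background. In libraries 1 and 2 the call of Mrps7 (log2 change -0.34) was lost without NAC 2 (-0.15; adjusted p = 0.0923), control 1 or control 2, with upper quartile scaling and in the fit to these libraries alone, while that of Mrpl20 held under each alternative. For Mrpl20 the difference between the sets was 0.41 ± 0.19 (SE; adjusted p = 0.0937).

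**Figure D4:**
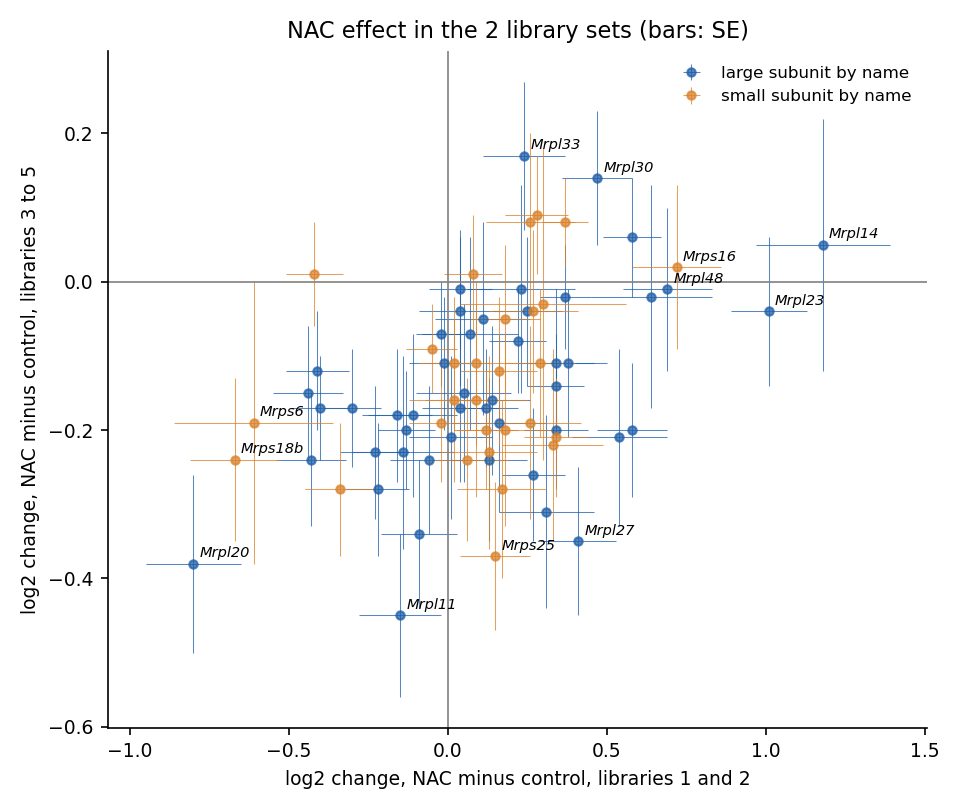
Log2 change, NAC minus control, of each of the 77 genes in libraries 1 and 2 (horizontal) and in libraries 3 to 5 (vertical), with SE bars; large subunit blue, small subunit orange. Most points lie below 0 on the vertical axis while they spread from -0.80 (Mrpl20) to 1.18 (Mrpl14) on the horizontal axis.

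The level in the 2 sets was also compared, over NAC and control together. Summed over all these genes, control had 4294 ± 28.3 CPM in libraries 1 and 2 and 4287 ± 112 CPM in libraries 3 to 5 (SD, n = 2 and 3). With NAC the sums were 4541 ± 916 and 3904 ± 116 CPM. In the mean of both groups, 10 genes were higher and 27 lower in libraries 3 to 5 than in libraries 1 and 2, against 31% higher and 30.9% lower of all genes tested, 61.9% in all. Large subunit genes made up 7 of the 10 and 17 of the 27. The median log2 difference was -0.10 with 47 of the 77 negative. Without NAC 1 it was 0.01, with 28 genes higher and 20 lower, against 34.7% and 33.6% of all genes. Without NAC 2 it was -0.20, with 7 higher and 44 lower, against 35.1% and 33.7%. Mrps25 was lower by 0.76 and Mrps21, whose counterpart lies at the platform of the bacterial small subunit, by 0.65 on the log2 scale (SE 0.07 and 0.10; adjusted p = 1.29e-06 and 5.43e-05). Mrpl33 was higher by 0.45 ± 0.09 (SE; adjusted p = 0.000505). It overlaps Rbks on the opposite strand by 39946 bases, and Rbks was also higher, by 0.88 (adjusted p = 0.000113). The part of shared reads in the difference of Mrpl33 was not tested. Mrps21 had 26.5, 28.4 and 27.4 CPM in NAC 3 to 5 and 29.7, 32.0 and 34.8 CPM in control 3 to 5, against 58.5 and 39.4 CPM in NAC 1 and 2 and 47.4 and 41.8 CPM in control 1 and 2.

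Summed over all 78 genes, the level was 5189, 3893, 3963, 3770 and 3978 CPM in NAC 1 to 5, against 4314, 4274, 4182, 4274 and 4404 CPM in control 1 to 5. NAC 1 was the highest of all 10 libraries and the other 4 NAC libraries were below all 5 controls. In libraries 3 to 5 the sum was 3904 ± 116 CPM with NAC and 4287 ± 112 CPM in control (SD, n = 3 each). No p is given for a sum, since the genes were chosen with results known.

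The 2 subunits moved in parallel. Large subunit genes summed to 3394, 2541, 2585, 2475 and 2607 CPM with NAC and 2853, 2828, 2776, 2821 and 2906 CPM in control. Small subunit genes summed to 1795, 1352, 1378, 1295 and 1371 CPM with NAC and 1461, 1447, 1406, 1454 and 1498 CPM in control. The ratio of the large to the small sum was 1.88 to 1.91 with NAC and 1.94 to 1.97 in control, so that all 5 NAC libraries, NAC 1 included, were below all 5 controls.

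That small shift of the ratio was smaller without Mrpl20, with means of 1.844 with NAC and 1.882 in control in place of 1.892 and 1.95. The ratio was then 1.82 to 1.86 with NAC and 1.87 to 1.91 in control, still without overlap. With Mrps30 and Mrps18a counted in the large subunit and Mrps36 left out, it was 2.11 to 2.16 with NAC and 2.17 to 2.23 in control. Per gene length it was not clear: summed FPKM (reads per kilobase of gene scaled to library size, as deposited) gave ratios of 2.07 to 2.14 with NAC and 2.10 to 2.21 in control, which overlap. The median NAC effect of the subunits was alike within each set. It was -0.17 for large and -0.16 for small subunit genes in libraries 3 to 5 and 0.12 and 0.15 in libraries 1 and 2. For the difference in level between the sets the medians were -0.08 and -0.16.

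Proteins with a bacterial counterpart and those specific to mitochondria were counted apart by structure. In libraries 3 to 5 all 20 tested large subunit genes specific to mitochondria had a negative change (median -0.16, 2 called lower), as did 26 of the 30 with a bacterial counterpart (median -0.15, 4 called lower). In the small subunit 9 of 10 specific genes (median -0.19) and 11 of 16 conserved genes (median -0.14) were negative, with 1 called lower in each class. In libraries 1 and 2 the conserved large subunit genes gave 12 calls higher and 2 lower (median 0.20), and the specific ones 4 higher and 4 lower (median 0.02). As shares these were 40% higher and 6.67% lower of the conserved and 20% each way of the specific ones. Among all genes tested 32.2% were higher and 28.3% lower there, and 14% were lower in libraries 3 to 5. These classes were not tested against each other.

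Per length, levels spanned a wide range. Mean FPKM over the 10 libraries ran from 1.77 (Mrpl33) to 87.0 (Mrpl12), with a median of 24.8 in large and 15.5 in small subunit genes, against 7.52 over all genes tested. The gene length in the table may include rarely used exons, which lowers FPKM. The highest were Mrpl12, Mrpl34 and Mrpl2 of the large subunit, at 87.0, 67.5 and 56.5 FPKM, and Mrps21, Mrps23 and Mrps15 of the small subunit, at 49.5, 48.7 and 46.8 FPKM. Mrpl12 encodes the stalk protein present in several copies per ribosome, which has also been reported to bind mitochondrial RNA polymerase. Mrpl2 lies next to the peptidyl transferase centre.

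Mrpl12 had 186.2, 110.4, 107.5, 103.8 and 115.7 CPM with NAC and 162.3, 164.7, 124.3, 129.1 and 130.6 CPM in control. NAC 1 was above all controls and the other 4 NAC libraries were below all of them. Mrpl34 had 58.7, 47.5, 36.4, 33.1 and 39.1 CPM with NAC and 35.1, 36.1, 40.8, 42.2 and 41.5 CPM in control. NAC was thus higher in libraries 1 and 2 and lower in libraries 3 to 5, and the difference between these effects was -0.77 ± 0.14 (log2, SE; adjusted p = 0.000889). Mrpl2, at 77.1, 56.7, 63.6, 66.2 and 73.7 CPM with NAC and 50.9, 54.6, 76.4, 73.7 and 69.9 CPM in control, was lowest in control 1 and 2, and its difference between the sets (-0.45 ± 0.16 SE; adjusted p = 0.0342) was lost when any of 7 libraries was left out.

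Of the 2 other highest small subunit genes, Mrps23, specific to mitochondria, had 90.6, 71.3, 72.1, 65.3 and 72.8 CPM with NAC and 71.8, 76.9, 80.0, 79.6 and 81.2 CPM in control. Mrps15, with a bacterial counterpart, had 104.5, 77.0, 76.2, 68.5 and 71.2 CPM with NAC and 85.9, 76.3, 73.8, 74.95 and 85.7 CPM in control. In both NAC 1 was the highest of the 10 libraries, and the groups overlapped.

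The lowest per length were Mrpl33, Mrpl43 and Mrpl48 of the large subunit, at 1.77, 5.02 and 6.80 FPKM, and Mrps25, Mrps35 and Mrps30, at 4.64, 5.37 and 6.35 FPKM. Mrpl43, specific to mitochondria, had 10.1, 7.97, 8.18, 6.85 and 8.19 CPM with NAC and 6.502, 5.03, 8.20, 7.09 and 8.33 CPM in control. Both controls of libraries 1 and 2 were lower than every other library. Mrps35, of the small subunit, had 64.99, 45.5, 44.4, 45.8 and 43.9 CPM with NAC and 41.1, 51.4, 41.4, 44.1 and 41.1 CPM in control, and Mrps30 had 58.8, 44.3, 38.5, 36.4 and 38.0 CPM with NAC and 47.6, 43.4, 39.7, 37.2 and 39.9 CPM in control. NAC 1 was again the highest library in both.

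Some further genes are of interest for their roles. Mrpl58 encodes a peptidyl-tRNA hydrolase that became part of the large subunit, and had 30.5, 19.5, 23.9, 23.8 and 26.1 CPM with NAC and 20.3, 22.4, 27.3, 22.2 and 24.7 CPM in control. Mrps12, whose product lines the decoding site, had 45.9, 29.2, 28.1, 25.8 and 27.4 CPM with NAC and 31.5, 31.3, 29.3, 29.99 and 33.6 CPM in control. Apart from NAC 1, every NAC library was below every control in Mrps12, whereas Mrpl58 overlapped throughout.

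Mrpl41, specific to mitochondria, had 44.0, 33.4, 23.5, 25.6 and 23.1 CPM with NAC and 37.4, 33.2, 27.1, 27.8 and 30.5 CPM in control. Mrps36, the gene outside the ribosome, had 47.7, 33.8, 32.4, 30.9 and 30.9 CPM with NAC and 35.5, 32.0, 30.8, 30.7 and 35.4 CPM in control. It too was highest in NAC 1, and otherwise the groups overlapped.

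**Figure D5:**
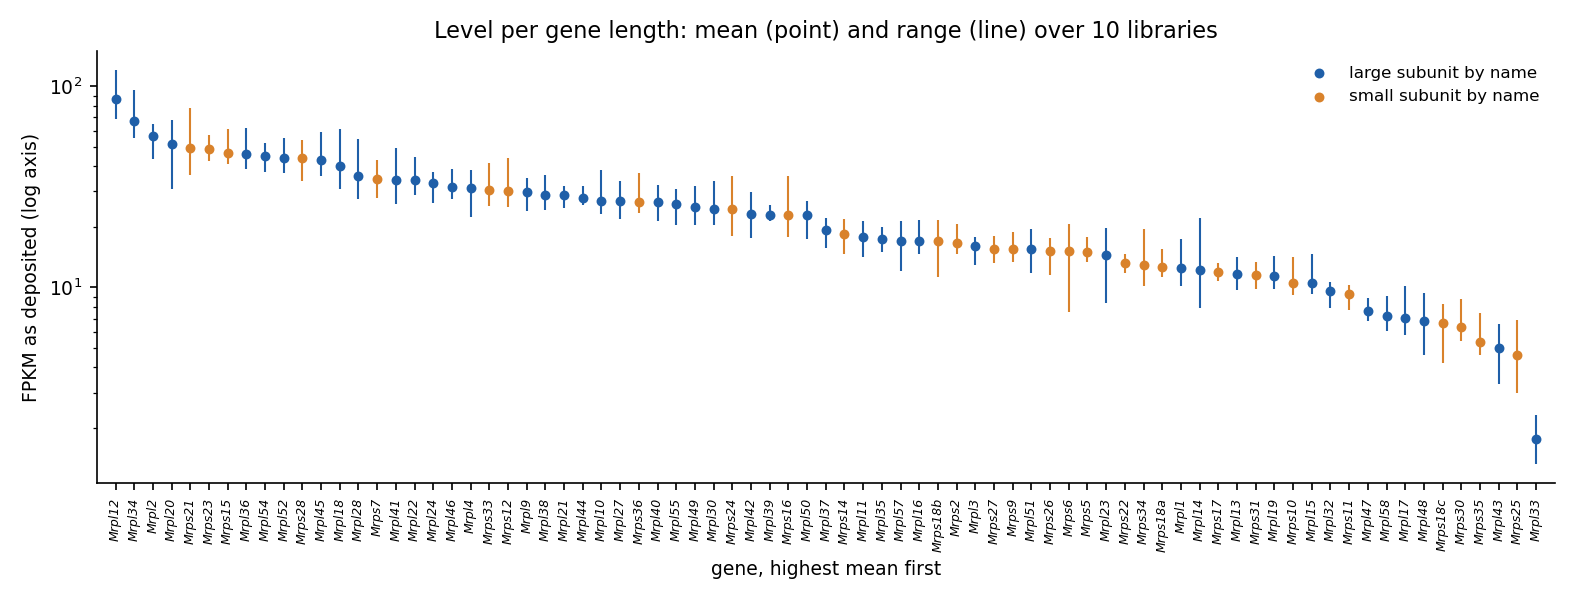
Mean deposited FPKM (points) and range over the 10 libraries (lines) of the 77 tested genes on a log axis, from highest to lowest; large subunit blue, small subunit orange. Levels run from 87.0 FPKM in Mrpl12 to 1.77 FPKM in Mrpl33, and each gene overlaps the next in its range except Mrps25 and Mrpl33.

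Reads of 25 of the 78 genes could be shared with an overlapping gene, on the same strand in 4 (Mrpl53, Mrps6, Mrps24 and Mrps34). Among the genes called lower in libraries 3 to 5, Mrpl27 overlaps Eme1, which had 26.0, 23.1 and 28.0 CPM in NAC 3 to 5 and 31.9, 29.2 and 32.6 CPM in control 3 to 5. Eme1 was itself called lower there (log2 change -0.28; adjusted p = 0.0284). Mrps25 overlaps Nr2c2, which changed by 0.06 (adjusted p = 0.868), and Mrps7 overlaps Gga3 and Mif4gd, which changed by 0.10 and 0.02 (adjusted p = 0.264 and 0.894). On the opposite strand Mrpl48 overlaps Rab6a and Mrpl49 overlaps Syvn1. Without strand, reads of such pairs cannot be told apart.

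Genes that serve the same machinery were counted from lists over all 10 libraries, with 6.69% of all genes called higher and 4.88% lower. Of 5 mitoribosomal proteins outside the naming rule 0 were called. Ptcd3, a small subunit protein, had 107.7, 97.0, 101.2, 107.0 and 109.6 CPM with NAC and 159.0, 165.7, 112.5, 116.4 and 113.2 CPM in control (log2 change -0.35; adjusted p = 0.0902). Dap3, another, had 151.2, 132.4, 100.6, 96.4 and 99.4 CPM with NAC and 99.9, 102.9, 102.9, 109.6 and 109.1 CPM in control. Ptcd3 was lower with NAC in all libraries without overlap, whereas Dap3 was above its controls in libraries 1 and 2 and below them in libraries 3 to 5.

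Of 14 tested mitochondrial translation factors 1 was called lower and 0 higher. This was Gfm1, the elongation factor that moves the ribosome along the messenger RNA, at 111.0, 97.8, 84.7, 96.2 and 92.98 CPM with NAC and 145.3, 140.9, 111.2, 114.1 and 117.7 CPM in control. Its groups barely separated (log2 change -0.38; adjusted p = 0.0401), and the call was lost when any library but NAC 1 was left out. Of 24 genes of mitoribosome assembly and rRNA modification 1 was higher and 1 lower. Mrm1, a methyltransferase of the large ribosomal RNA, was higher (log2 change 0.44; adjusted p = 0.0331) and Fastkd2, an RNA-binding protein needed to assemble the large subunit, was lower (-0.52; adjusted p = 0.0359). Mrm1 lost its call in 7 and Fastkd2 in 7 of the 10 settings that leave out 1 library.

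Of 17 mitochondrial aminoacyl-tRNA synthetases 1, Yars2, was lower (log2 change -0.57; adjusted p = 0.0249) and 0 were higher. Of 22 genes for copying and transcription of mitochondrial DNA, 1 was higher and 1 lower. Primpol, a primase that is also a polymerase, had 28.1, 36.7, 28.7, 28.1 and 26.9 CPM with NAC and 11.7, 12.6, 15.9, 15.6 and 19.3 CPM in control. With NAC all 5 libraries were above all controls (log2 change 0.99; adjusted p = 0.00538). Elac2, which trims the end of transfer RNA precursors, was lower (-0.30; adjusted p = 0.0397, and 0.0529 with the block). Yars2 lost its call without NAC 2, NAC 5, control 1 or control 2, and Elac2 without any library but NAC 1 or control 5.

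Of 9 tested regulators of nuclear genes for mitochondria 1 was lower and 0 were higher. Pprc1, a coactivator of NRF1-driven genes, had 111.4, 97.5, 118.0, 123.6 and 126.6 CPM with NAC and 195.6, 209.5, 147.1, 158.6 and 151.7 CPM in control. Every NAC library was below every control (log2 change -0.58; adjusted p = 0.016). Myc, which drives growth of activated T cells, had 376.2, 346.5, 397.5, 397.6 and 393.9 CPM with NAC and 372.1, 364.5, 393.4, 399.4 and 406.7 CPM in control, with a log2 change of -0.02 ± 0.07 (SE; adjusted p = 0.891).

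The 84 tested genes for proteins of the cytosolic ribosome had a median log2 change of 0.01 in libraries 3 to 5, with 0 called and 41 negative; the difference from the mitochondrial ones was not tested. Of all genes tested 29% were called there. In libraries 1 and 2 the cytosolic ones gave 63 calls higher (75%) and 3 lower (3.57%), against 32.2% and 28.3% of all genes, with a median of 0.53. NAC 1 exceeded NAC 2 in 83 of the 84 by a median log2 ratio of 0.44, as it did in nearly all the mitochondrial ones.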

How the data were processed

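RNA was measured by bulk RNA-seq in 10 libraries of mouse CD8+ T cells (total RNA, a SMARTER mRNA kit per the labels' protocols). The authors deposited 1 table with whole-number read counts per gene and library, per the file headers. The same table holds FPKM values, per the file headers, which the authors' counts, gene lengths and library totals reproduced when checked. The aligner, counter and strand setting are not stated in the sources used here. Builds GRCm38 and mm10 appear in the submitters' processing notes, but the annotation behind the table's coordinates was not settled, so none are printed; promoter coordinates are RefSeq's (GRCm38.p6). All 10 count columns matched a library, and 22 rows share a symbol with another.

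Counts were tested with edgeR 4.0.16 in R 4.3.3 (TMM factors, filterByExpr, robust quasi-likelihood fit), with p-values adjusted by Benjamini-Hochberg over all 11403 genes that passed the filter and a threshold of 0.05. NAC was set against control over all libraries without a block. A second fit with a mean for each group and library set (numbers 1 and 2, numbers 3 to 5) gave the effect in each set and the difference between them. Given log2 changes are fitted values with their SE. CPM uses TMM-scaled library sizes. Depth ran from 14.65 M to 17.37 M reads with NAC and from 13.3 M to 17.71 M reads in control; the 3 least counted tested genes had 74 to 149 (Mrps18c), 83 to 155 (Mrpl43) and 123 to 324 reads per library (Mrpl14). The floor of 3 reads covers counting error only. The scripts were tested on simulated counts.

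Pairing by number was checked in the data, since the labels state none. Deviations of same-numbered NAC and control libraries from their group means correlated in all 5 pairs (r of 0.48 to 0.60 across genes). Libraries of the same set with different numbers correlated as well (0.47 to 0.58). The check therefore cannot tell pairing by number from the split into sets. The main test used no pairs, and the block on the library number was an alternative. The common coefficient of variation was 26.6% without a block, 16.4% with the library number as a block, 13.1% with a term for the set and 7.43% with a mean for each group and set.

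Named with values were the 5 largest rises and falls over all libraries, the 4 largest each way in each set, the smallest p for the difference between the sets, the 3 highest and lowest genes of each subunit by FPKM, a list of genes with special roles (Mrpl12, Mrpl41, Mrpl58, Mrps12, Mrps30, Mrps18a, Mrps18b, Mrps18c, Mrps36 and Myc), and from each related list up to 2 called genes each way or, with none called, the 2 most abundant. Other genes were named because they were called, after their values were seen; the promoter of Mrpl20 was also chosen so. The genes, lists and tests were chosen with earlier results of these data known. Alternatives were other scaling factors (DESeq2 size factors, library size alone, upper quartile), other filters, DESeq2 1.42.0, limma-voom (limma 3.58.1), a fit without robust estimation, a block, a set term, each set alone, and each library left out. Protein sequences were not used here.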

Additional observations from a re-analysis of the deposited data

Results flagged for a closer look

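NAC 1 stood far above the other 4 NAC libraries in the summed level of all these genes (5189 CPM), of large subunit genes (3394 CPM) and of small subunit genes (1795 CPM). It also did so in Mrpl30 (109.7 CPM), Mrpl48 (76.99 CPM), Mrpl11 (69.75 CPM), Mrps10 (115.9 CPM), Mrps35 (64.99 CPM), Mrpl12 (186.2 CPM), Mrps15 (104.5 CPM), Mrps12 (45.93 CPM) and Mrps36 (47.7 CPM). NAC 2 stood far below the other 4 in Mrpl20 (48.97 CPM) and Mrpl50 (35.2 CPM). In each case the gap to the next library, divided by the range of the 5, was above Dixon's 95% value. Of the 33 sets of values examined, 14 were beyond it with NAC and 0 in control; chance puts about 1 in 20 groups there, and the sets share the same 5 libraries, so they are not independent.

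The effect of NAC differed between libraries 3 to 5 and libraries 1 and 2 by the test of that difference (edgeR, adjusted p from 0.000204 to 0.0396) in these described genes. The log2 difference was -1.14 in Mrpl14, -1.05 in Mrpl23, -0.77 in Mrpl27, -0.77 in Mrpl34, -0.7 in Mrps16, -0.7 in Mrpl48, -0.66 in Mrpl43, -0.53 in Mrps25 and -0.45 in Mrpl2. Mrpl2 and Mrpl43 lost this call when any of 7 libraries was left out and Mrps25 without control 2, while the other 6 kept it whichever library was left out.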

How the results depend on the processing

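Where the change of a named gene was recomputed under each alternative, it kept its sign. Over all 77 genes signs did turn: 46 were negative over all libraries, and 29 (upper quartile factors) to 61 (without NAC 1) under the alternatives; in libraries 1 and 2 these were 23, and 12 (without NAC 2) to 52 (without NAC 1). Over all libraries the count of genes called lower was 1, where 4.88% of all genes tested were lower. It was 3 with DESeq2 size factors (5.03% of all genes), 6 with the DESeq2 Wald test (9.16%) and 2 with limma-voom (4.81%). With the library number as a block it was 5 (8.22%), and with a term for the set 11 (16.4%). The count called higher was 0, and 1 with that term (20.1%). With 1 library left out the count lower was 0 to 9 (1.85% to 5.92%). In libraries 1 and 2 the fit to them alone gave 8 higher and 6 lower in place of 21 and 10, and leaving out 1 library gave 11 to 53 higher and 8 to 26 lower. In libraries 3 to 5 the count lower was 8, and 4 with upper quartile factors, 41 in the fit to them alone and 1 to 41 with 1 library left out; the count higher was 0, 1 in the fit to them alone, and 0 to 1. For the difference between the sets, 1 gene was called higher, and 2 with library size alone, 3 without the filter on low counts, 2 with the DESeq2 Wald test and 2 with limma-voom; leaving out 1 library gave 1 to 11 higher, and 14 to 60 lower in place of 21. The cause of these moves was not tested. The shares of all genes called moved as well. Fitted alone, libraries 1 and 2 had 23.7% higher and 20.1% lower, and libraries 3 to 5 had 25% lower. Upper quartile factors left 9.99% lower in libraries 3 to 5. In the 4 settings named for the difference between the sets, 15.2% to 20.5% of all genes were higher. Besides the count, the block brought Mrps18b, Mrpl49, Mrpl11 and Mrps7 past the threshold, kept Mrpl20 there and took Elac2 from it; it was not run within the sets. Counting the subunits by structure for the difference between the sets was added after seeing the data. Depth limits Mrps18c, Mrpl43 and Mrpl14 most.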

Other observations

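The related lists were also counted in libraries 3 to 5, where 15% of all genes tested were called higher and 14% lower. Of the 14 translation factors 1 was higher and 2 were lower, of the 24 genes of assembly and rRNA modification 1 was higher and 4 were lower, and of the 17 synthetases 1 was higher and 3 were lower. Of the 22 genes for mitochondrial DNA 1 was called in each direction, with 17 negative and a median log2 change of -0.14. All 5 mitoribosomal proteins outside the naming rule had a negative change there, with a median of -0.12 and 0 called. The medians of the translation factors, the assembly genes and the synthetases were -0.01, -0.03 and 0.00.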
